A study of Mus musculus with 18 samples.

Results

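The comparison described here is that of the later with the earlier of 2 stages in mice with normal Trem2 alleles (WT), over all genes measured. Its members are the arrays titled as wild type, 5 of 12 weeks and 4 of 6 weeks, which are 9 of the 18 arrays in all. Tissue was the caudal part of the corpus callosum, the white matter bridge between the hemispheres, of C57BL/6 mice. Every mouse received cuprizone (CPZ), which binds copper, at 0.2% of its food. The other 9 arrays are of Trem2 knockout mice (KO) on the same food, 3 of 6 weeks and 6 of 12 weeks, and enter as the second genotype in which the same stages were measured. The labels leave it unclear if a stage counts age or time on CPZ. Sample descriptions read as an age, whereas the treatment protocol lists several durations of feeding. Arrays from mice free of CPZ were not analysed here, so a level cannot be set against normally fed tissue, and a lower value at 12 weeks is only lower than at 6 weeks. The labels do not state that the arrays of a group come from different mice, and the p-values therefore cover the spread among arrays, part of which can be technical.

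CPZ kills oligodendrocytes, the cells that make myelin, and the tract loses its myelin sheaths while microglia and astrocytes become reactive and take up the debris. Oligodendrocyte precursors then divide, differentiate and can make new myelin, which is possible on a short feeding and less so on a long one. Type I interferon is a signal that switches on a common set of defence genes in microglia, astrocytes and other cells, and some of these genes are also raised in demyelinated white matter.

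Each value below is a log2 signal of a gene in an array, the median of the gene's probe sets, so a difference of 1 is a doubling. A gene passed where its adjusted p from limma was under 0.05 after Benjamini-Hochberg adjustment over 16324 genes. Replicates are named by the number in their titles. The defining genes of the labelled tissue were present in each WT array: Mbp, the myelin basic protein, read 9.08 to 11.58, and Gfap, the intermediate filament of astrocytes, read 9.66 to 10.75. RNA of neighbouring grey matter was present too, since Snap25, a protein of nerve terminals, read 9.58 to 11.28. Trem2 itself, the myeloid receptor deleted in KO, lay between 6.44 and 8.42 in WT arrays and between 4.79 and 6.05 in KO arrays, which do not overlap.

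The 9 WT arrays were not alike in their mixture of tissues, and these differences touch several results. At 6 weeks, replicates 3 and 4 were high in the list of mature oligodendrocyte and myelin genes (mean log2 signal of the list 9.17 and 9.51) against replicates 1 and 2 (7.59 and 7.75). Replicates 3 and 4 were also low in pan-neuronal genes (8.12 and 7.90, against 9.16 and 9.10). Replicate 4 of 6 weeks stood apart in choroid plexus genes (9.34, against 5.57 to 6.24 in the other 6-week WT arrays). By Xist and Y-linked genes, replicates 3 and 4 of 6 weeks and replicates 1 and 2 of 12 weeks were female and the other 5 WT arrays male, so that sex and this mixture cannot be told apart at 6 weeks. For part of the genes and lists, stage differences are therefore also given between female arrays alone (2 against 2) and male arrays alone (3 against 2). Where the split is not given, a difference may be unlike between the sexes.

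At 12 weeks 3 genes were lower than at 6 weeks and none was higher (limma, adjusted p under 0.05). The 3 make up 0.0184% of all genes tested, and they encode a transcription factor, Prox1, an interferon-induced protein, Rtp4, and a regulator of membrane traffic, Tbc1d8b. By unadjusted p, 1384 genes (8.48%) lay under 0.05 where chance gives 816.2, with 740 lower (4.53%) and 644 higher (3.95%). In 214 genes (1.31%) every 12-week array lay below every 6-week array, and in 192 (1.18%) every one lay above. The estimate was below 0 in 48.8% of all genes and above 0 in 51.2%, and the median of all genes was 0.01, so the estimates were centred near 0.

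**Figure D1:**
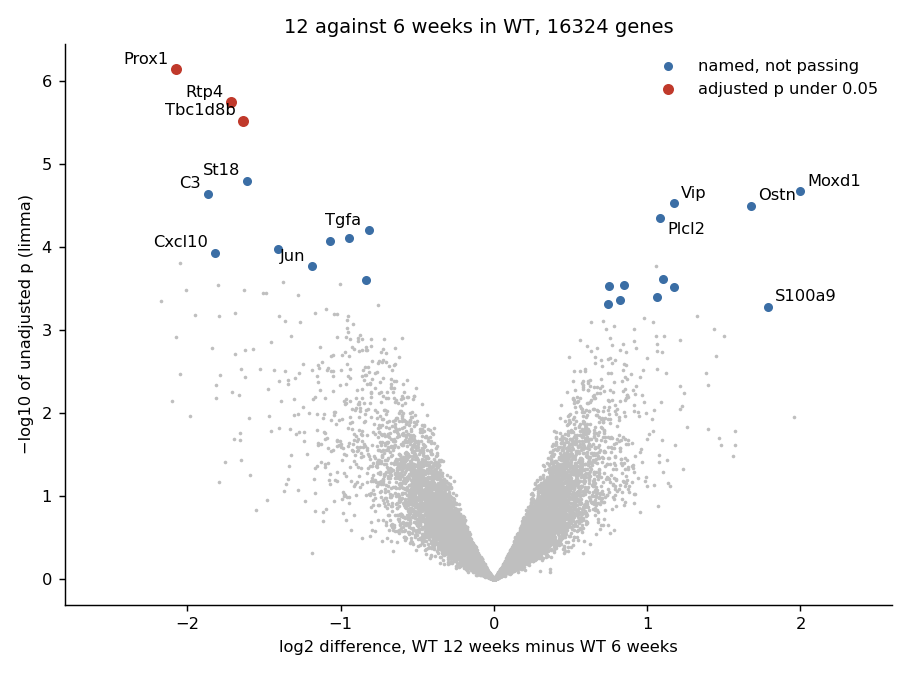
Difference between stages for each of the 16324 genes tested (x axis, log2 signal, WT 12 weeks minus WT 6 weeks) against −log10 of the unadjusted limma p (y axis). The 3 red points passed at an adjusted p of 0.05 and all lie to the left; blue points are the other genes of smallest p in either direction (a clone or predicted name was passed over on each side), none of which passed.

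Prox1 encodes a homeobox transcription factor known in the brain for granule neurons of the dentate gyrus and some interneurons. It read 7.91, 7.99, 7.72 and 7.43 in replicates 1 to 4 of 6 weeks and 5.05, 5.99, 5.64, 5.48 and 6.29 in replicates 1 to 5 of 12 weeks. All 12-week arrays lay below all 6-week arrays, with more than 1 log2 unit between the groups. The gene fell by 2.07 ± 0.29 (log2, SE; 4.20-fold; adjusted p = 0.0120), from 7.76 ± 0.25 (SD, n = 4) to 5.69 ± 0.48 (SD, n = 5). All 7 of its probe sets were lower. The difference was −2.05 between female arrays and −2.15 between male arrays, nearly the same size in both.

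Because Prox1 marks the dentate gyrus, which lies under the caudal corpus callosum, the rest of that marker list is given beside it. The mean log2 signal of the other 9 dentate gyrus genes was 6.33, 6.28, 4.78 and 5.21 in replicates 1 to 4 of 6 weeks. It was 5.28, 5.42, 5.13, 5.03 and 5.03 in replicates 1 to 5 of 12 weeks. For these genes replicate 3 of 6 weeks lay below the 12-week arrays and replicate 4 within their range, while both lay above every 12-week array in Prox1. Of the 9, 7 were lower at 12 weeks, their median difference was −0.30, and it was 0.73 between female and −1.28 between male arrays. Among the KO arrays, Prox1 was highest where these genes were highest (7.58 and 6.27 in replicate 1 of 12 weeks). It was low where they were low (6.38 and 4.61 in replicate 2 of 6 weeks, 6.16 and 5.02 in replicate 5 of 12 weeks). Whether dentate gyrus content accounts for the Prox1 difference in WT was not tested. Glis3, a zinc finger transcription factor of several tissues, had groups that do not overlap, with 6.41 to 7.11 at 6 weeks and 5.45 to 6.06 at 12 weeks (−0.95 ± 0.24, adjusted p = 0.244). Dsp, the desmosome protein desmoplakin and a granule cell marker, read 6.41, 6.47, 4.40 and 5.46 at 6 weeks and 3.66 to 5.50 at 12 weeks, with groups that overlap.

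Rtp4 encodes a receptor transporter protein that interferon induces. It read 6.23, 5.95, 6.73 and 7.03 at 6 weeks and 4.59, 4.49, 5.22, 5.14 and 4.43 at 12 weeks. The groups do not overlap. The gene fell by 1.71 ± 0.26 (log2, SE; 3.28-fold; adjusted p = 0.0150), from 6.49 ± 0.49 (SD, n = 4) to 4.77 ± 0.38 (SD, n = 5). All 3 of its probe sets were lower, and the brightest of them differed by −0.98, which did not pass when it stood for the gene (adjusted p = 0.317). The difference was −2.34 between females and −1.16 between males. Without 1 array the call was lost in 4 fits, those without replicate 3 (adjusted p = 0.0831) or 4 (0.0729) of 6 weeks and without replicate 2 (0.0515) or 5 (0.0524) of 12 weeks, with differences of −1.63, −1.53, −1.64 and −1.63.

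Tbc1d8b encodes a protein with a TBC domain, the part that switches off Rab proteins of vesicle traffic. It read 5.59, 5.15, 4.75 and 4.66 at 6 weeks and 2.92, 3.61, 3.43, 3.13 and 3.91 at 12 weeks, again with no overlap. It fell by 1.64 ± 0.25 (log2, SE; 3.11-fold; adjusted p = 0.0166). The 12-week mean of 3.40 ± 0.39 (SD, n = 5) is about equal to the lowest mean that was kept, 3.41, so the size of the fall is uncertain. All 12 of its probe sets were lower, but the brightest differed by −0.33 (adjusted p = 0.838 when it stood for the gene). The call was lost without replicate 1 (adjusted p = 0.0702, difference −1.45) or 2 (0.0825, −1.60) of 6 weeks and without replicate 1 (0.0601, −1.52), 2 (0.0515, −1.69) or 3 (0.0593, −1.64) of 12 weeks. Prox1 lost its call only without replicate 2 of 6 weeks, by a narrow margin (adjusted p = 0.0510). With the brightest probe set it was at −1.79 (adjusted p = 0.0731).

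**Figure D2:**
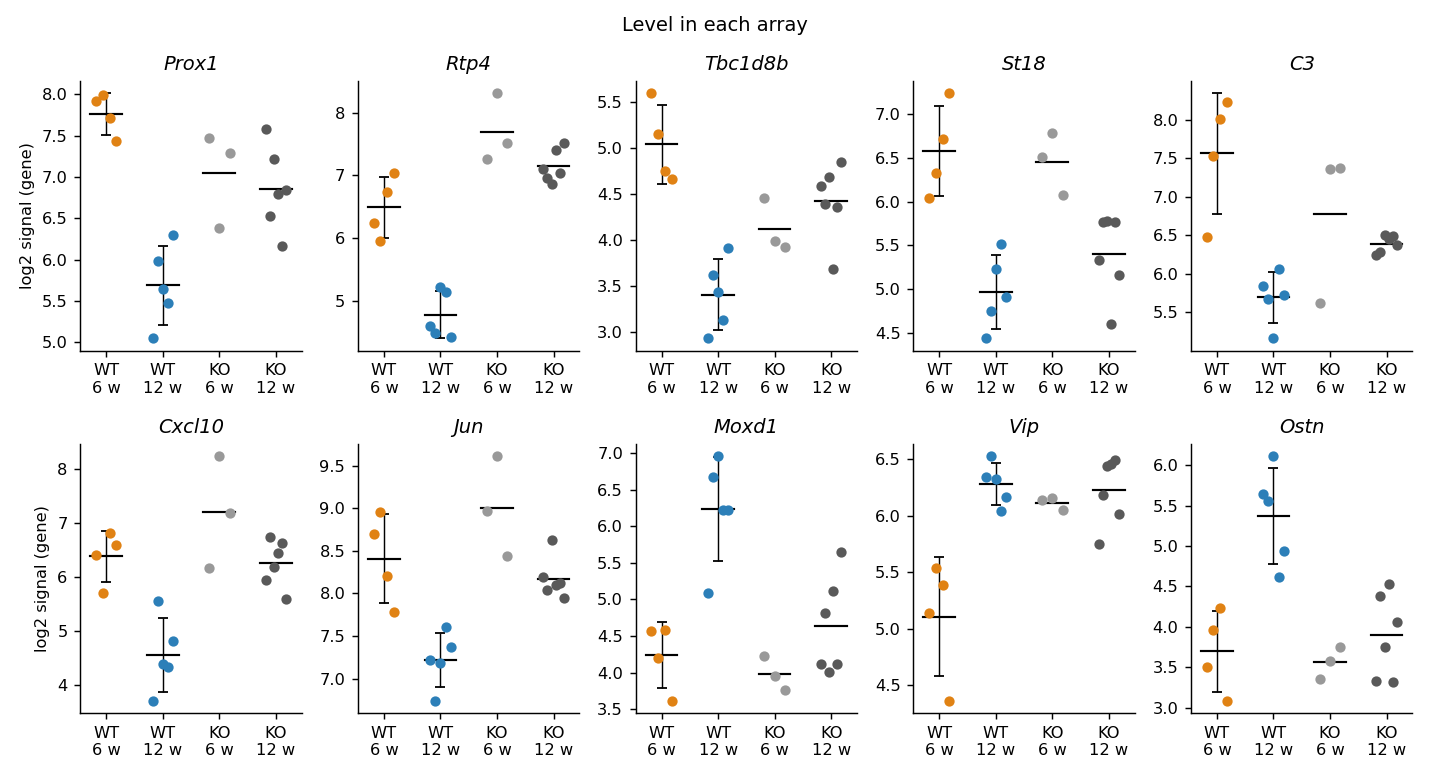
Log2 signal of 10 genes in each array (points), by genotype and stage, with the group mean as a line and ± 1 SD as bars for the WT groups (n = 4 and 5). Prox1, Rtp4 and Tbc1d8b, which passed, and the other 7, which did not, show no overlap between the 2 WT groups; the KO groups are drawn in grey for comparison.

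The lower genes that came next missed the threshold. St18, a zinc finger transcription factor of the Myt1 family, read 6.05, 6.32, 6.71 and 7.24 at 6 weeks and 4.44, 4.75, 5.23, 5.52 and 4.92 at 12 weeks (−1.61 ± 0.28, adjusted p = 0.0628). Each of its 25 probe sets was lower, and it passed when the brightest one stood for the gene (−1.83, adjusted p = 0.0299). C3, the central complement protein, read 6.48, 7.53, 8.01 and 8.23 at 6 weeks and 5.84, 5.67, 5.16, 6.06 and 5.73 at 12 weeks (−1.87 ± 0.34, adjusted p = 0.0628). Neither gene's groups overlap, and of the 39 probe sets of C3, 37 were lower. Between females and between males the differences were −2.38 and −0.96 in St18 and −2.36 and −1.35 in C3. C3 passed in 3 of 23 alternatives and St18 in 5 of 23. Both passed with the mean of the probe sets (adjusted p = 0.0320 in both) and with sex as a covariate (0.0365 in both). Both also passed without replicate 1 of 6 weeks (0.0171 for C3 and 0.0427 for St18). With its brightest probe set C3 did not pass (−1.91, adjusted p = 0.374).

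The other lower genes of smallest p include signals to neighbouring cells. Tgfa, a ligand of the epidermal growth factor receptor, was at −0.82 ± 0.16 (adjusted p = 0.103), and Plat, the tissue plasminogen activator, at −0.95 ± 0.19 (adjusted p = 0.116). Their brightest probe sets differed by only −0.04 in Tgfa and −0.13 in Plat (adjusted p = 0.964 and 0.944 when these stood for the genes). Cxcl10, an interferon-induced chemokine that attracts T cells, read 6.42, 5.71, 6.81 and 6.58 at 6 weeks and 3.71, 5.56, 4.39, 4.34 and 4.82 at 12 weeks (−1.82 ± 0.38, adjusted p = 0.137). Its groups came close to each other without overlapping. Jun, a subunit of the AP-1 transcription factor, read 8.69, 8.95, 8.20 and 7.78 at 6 weeks and 6.73 to 7.61 at 12 weeks (−1.18 ± 0.26, adjusted p = 0.164). Plcl1, a relative of phospholipase C without its enzyme activity (−1.07), Frmd5, a FERM domain protein of cell contacts (−1.41), and Slc4a4, a sodium bicarbonate carrier of astrocytes (−0.83), complete the 12. None of these 9 genes passed. In the brightest probe set the difference was −0.47 in Plcl1, −0.68 in Frmd5 and −0.23 in Slc4a4. It was −2.31 in Cxcl10 and −0.94 in Jun.

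No gene rose. The 12 higher genes of smallest p had adjusted p from 0.0628 to 0.240. Moxd1, a relative of dopamine beta-hydroxylase, read 4.57, 4.20, 4.58 and 3.61 at 6 weeks and 5.09, 6.67, 6.96, 6.23 and 6.23 at 12 weeks (2.00 ± 0.36, adjusted p = 0.0628). Its groups do not overlap, and all 13 probe sets were higher. It passed in 4 of 23 alternatives, after quantile normalization (adjusted p = 0.0450), with each array centred on its median (0.0459), with the mean of the probe sets (0.0320) and without replicate 1 of 12 weeks (0.0247). Vip, a neuropeptide of cortical interneurons, read 5.14, 5.54, 5.39 and 4.36 against 6.34, 6.53, 6.33, 6.04 and 6.16 (1.18 ± 0.22, adjusted p = 0.0656). Ostn, the secreted peptide osteocrin, read 3.51, 3.96, 4.23 and 3.08 against 5.64, 5.55, 6.11, 4.62 and 4.94 (1.68 ± 0.31, adjusted p = 0.0656). Both were higher in each 12-week array than in any 6-week array. The 6-week values of Ostn reached down to 3.08, below the lowest mean kept, 3.41, so the size of its difference is uncertain. Without replicate 4 of 12 weeks, Ostn (adjusted p = 0.0406) and Pdap1 (0.0415), which is among the genes given next, passed.

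Plcl2, the sister gene of Plcl1, was at 1.08 ± 0.21 (adjusted p = 0.0823), so that the 2 relatives stood on opposite sides of 0 without either passing. S100a9, a subunit of the calcium-binding protein calprotectin of neutrophils, read 4.54, 3.62, 3.84 and 5.07 at 6 weeks and 7.04, 6.13, 6.05, 6.25 and 4.80 at 12 weeks (1.79 ± 0.43, adjusted p = 0.240). Only replicate 5 of the 12-week arrays fell within the 6-week range. Fabp3, a fatty acid binding protein, was at 0.74 ± 0.18, and Cdc25b, a phosphatase that starts mitosis, at 0.83 ± 0.20. Sdr39u1 (1.10), Kctd12b (0.85), Drap1 (0.75), Pdap1 (1.17) and Khdrbs3 (1.06) make up the rest. In the brightest probe set the difference was 0.24 in Sdr39u1, 0.02 in Kctd12b, 0.94 in Drap1, 0.26 in Pdap1 and 0.22 in Khdrbs3. It was 0.37 in Plcl2, 0.57 in Fabp3, 0.31 in Cdc25b and 2.59 in S100a9. Pdap1 differed by 2.03 between females and 0.52 between males.

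Among gene groups, the interferon response was lower in every member measured well enough to test, and 1 of them passed. Of 18 genes listed, 16 were tested, 16 of 16 were lower at 12 weeks, and the median difference was −0.73, where 48.8% of all genes were lower and their median was 0.01. By unadjusted p under 0.05, 9 members were lower (all genes 4.53%), and in 7 the groups did not overlap (all genes 1.31%). The mean log2 signal of the list was 6.21, 5.95, 6.61 and 6.85 in replicates 1 to 4 of 6 weeks and 5.57, 5.46, 5.60, 5.47 and 5.47 in replicates 1 to 5 of 12 weeks. The 12-week arrays were tightly grouped and all lay below the 6-week arrays. The median was −1.25 between females and −0.54 between males, and it stayed between −0.87 and −0.61 when any 1 WT array was left out. Bulk tissue cannot tell fewer cells of a type from less RNA in each cell, here and for each list below. Some lists share genes, so the counts of different lists are not independent.

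Rtp4 was the member that passed. Lgals3bp, a secreted galectin-binding protein, read 7.35, 6.85, 7.85 and 7.99 at 6 weeks and 6.22, 6.07, 6.38, 5.92 and 6.36 at 12 weeks (−1.32 ± 0.35, adjusted p = 0.282). Xaf1, a protein that promotes cell death, was at −1.25 ± 0.36 (adjusted p = 0.310), and Oas1a, a sensor of double-stranded RNA, at −1.36 ± 0.40 (adjusted p = 0.317). Between females and between males Lgals3bp differed by −1.78 and −0.88, Xaf1 by −2.29 and −0.30, and Oas1a by −1.64 and −1.03. Among these 3, the arrays of Lgals3bp and Xaf1 do not overlap, while Oas1a in replicate 2 of 6 weeks, at 4.02, lay within the 12-week range of 3.61 to 4.45. Bst2, the tetherin that holds viruses at the cell surface, read 7.19 to 8.40 at 6 weeks and 6.29 to 6.83 at 12 weeks (−1.05, adjusted p = 0.326). Ifi27l2a (−1.67), Ifit3 (−0.62) and Usp18 (−0.69), the protease that removes ISG15 from proteins, also had groups that do not overlap. Isg15 itself (−0.48), Irf7 (−0.79), Rsad2 (−0.58), Ifit1 (−0.76), Ifit2 (−0.57), Ifitm3 (−0.53), Oasl2 (−0.49) and Ifi44 (−0.40) overlapped between stages. None of the members other than Rtp4 passed.

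Many interferon-induced genes carry near their start the element that interferon-activated transcription factors bind. Its core is GAAA, any 2 bases, and GAAA again, which reads as TTTC, any 2 bases, and TTTC on the other strand. In RefSeq promoters of GRCm38.p6 (250 bases before to 50 after the start, both strands searched, overlapping matches counted), 7 of 13 tested members with an entry held this core (53.8%). Of all tested genes with an entry, 451 of 12700 held it (3.55%). The list was made up of interferon-induced genes, so this share describes the list and not the stage difference. Stretches of 80 bases before the start are shown for 3 of the 7, to let the spacing of the element be seen in genes of the list whose levels are given here. Capitals mark matches of the core, which is longer where matches overlap. The stretches lie at chr19:34640769-34640848 (plus strand), chr5:120907526-120907605 (minus strand) and chr8:71537552-71537631 (minus strand).
Ifit1: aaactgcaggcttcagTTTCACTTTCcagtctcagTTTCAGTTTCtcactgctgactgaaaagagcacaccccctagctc
Oas1a: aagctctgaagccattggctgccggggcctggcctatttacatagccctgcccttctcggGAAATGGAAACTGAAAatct
Bst2: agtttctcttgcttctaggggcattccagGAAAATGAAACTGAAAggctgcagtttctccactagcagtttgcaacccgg
In Ifit1 the matches stand apart, and in Oas1a and Bst2 they overlap in a run of GAAA repeats. A match is a description of these letters, and binding was not measured. Rtp4, Usp18 and Ifi27l2a had no entry among the promoters used here, and Lgals3bp and Xaf1 held no match.

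The complement list had 11 of 12 members lower (median −0.43), with C3 and 2 others at an unadjusted p under 0.05 (4.53% of all genes on the lower side) and none passing. The median was −0.16 without replicate 3 of 6 weeks and −0.57 without replicate 4. C4b, a component of the classical pathway, was at −0.68 ± 0.32 and Itgam, a subunit of a complement receptor, at −0.65 ± 0.30. Of 10 tested genes of MHC class I presentation 9 were lower (median −0.28), led by H2-D1 at −0.75 ± 0.32 (adjusted p = 0.530). MHC class II genes were mixed, 4 of 7 lower (median −0.29, with both signs when single arrays were left out), without any at an unadjusted p under 0.05. In the list of cytokines, chemokines and inflammasome genes 15 of 21 were lower (median −0.12). The 3 at an unadjusted p under 0.05, all lower, were Cxcl10, Csf1, the growth factor of microglia (−0.82 ± 0.24, adjusted p = 0.315), and the neutrophil chemokine Cxcl5 (−1.27 ± 0.38, adjusted p = 0.318).

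**Figure D3:**
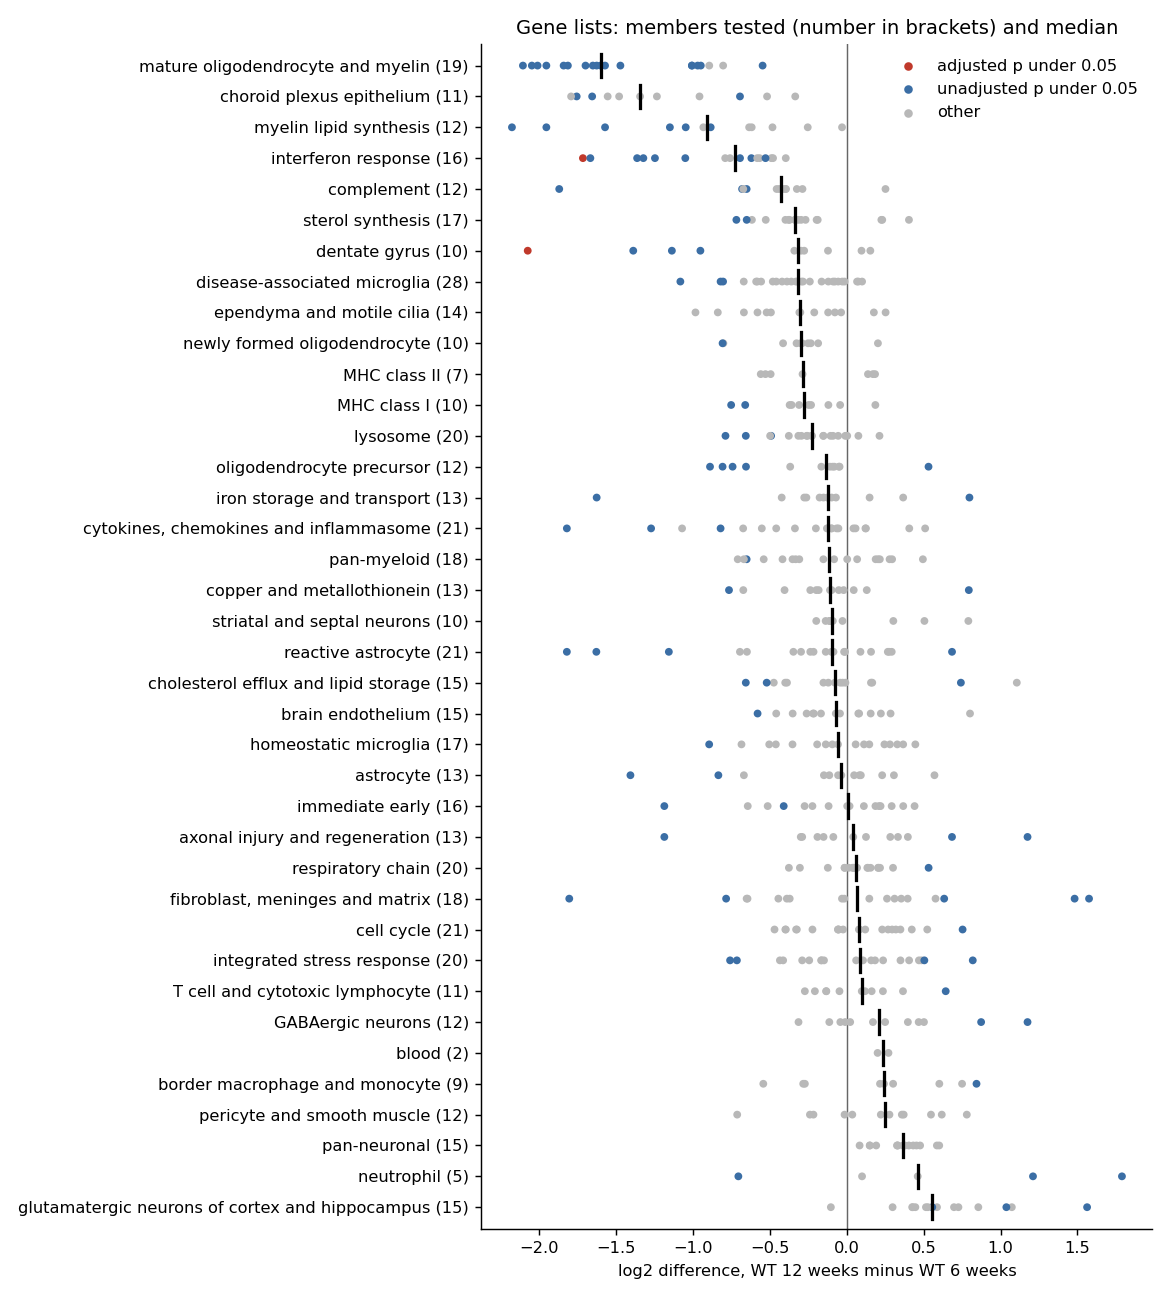
Log2 difference between stages in WT (x axis, 12 weeks minus 6 weeks) of every tested member of 38 gene lists (rows, number tested in brackets), with the median of each list as a black bar. Red members passed, blue ones had an unadjusted p under 0.05, and grey ones neither; all members of the myelin, myelin lipid, choroid plexus and interferon lists lie left of 0.

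Genes of myelin had the lowest list median, and none of them passed. Of 20 listed genes of mature oligodendrocytes and myelin 19 were tested, and 19 of 19 were lower at 12 weeks, with a median of −1.60. Unadjusted p was under 0.05 in 17 (4.53% of all genes on the lower side), and groups did not overlap in 4 (1.31% of all genes). The mean log2 signal of the list was 7.59, 7.75, 9.17 and 9.51 in replicates 1 to 4 of 6 weeks and 6.40, 6.38, 7.05, 7.70 and 7.76 in replicates 1 to 5 of 12 weeks. The 2 groups overlap, since replicates 4 and 5 of 12 weeks reached the level of replicates 1 and 2 of 6 weeks. Between females, who include the 2 high 6-week arrays, the median was −3.16, and between males it was −0.10.

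Cldn11, the tight junction protein between myelin layers, had the smallest p in this list. It read 8.53, 8.85, 10.53 and 10.69 at 6 weeks and 7.51, 6.67, 7.41, 8.35 and 8.27 at 12 weeks (−2.01 ± 0.46, adjusted p = 0.201). Its groups lay close together without overlapping, and the difference was −3.52 between females and −0.68 between males. Ugt8a, the enzyme that makes the myelin lipid galactosylceramide, read 7.50, 7.41, 9.33 and 9.47 against 5.83, 6.48, 6.61, 6.35 and 7.11 (−1.95 ± 0.48, adjusted p = 0.244). Mal, a proteolipid of myelin membranes, was at −1.84 ± 0.50, and Fa2h, which adds a hydroxyl group to myelin fatty acids, at −1.57 ± 0.43 (adjusted p = 0.284 in both). Between females and between males Ugt8a differed by −3.24 and −0.76, Mal by −3.16 and −0.62, and Fa2h by −3.07 and −0.22. Mag, a glycoprotein on the inner side of the sheath, read 8.82, 9.01, 10.71 and 10.74 at 6 weeks and 6.54, 6.83, 7.48, 9.21 and 8.82 at 12 weeks. Its difference was −4.04 between females and −0.41 between males. Mbp was at −0.89 ± 0.46 (adjusted p = 0.620) and Myrf, the transcription factor that drives myelin genes, at −0.80 ± 0.52 (adjusted p = 0.687). Between males these 2 differences were above 0 (0.23 and 0.39).

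Enzymes and carriers of myelin lipids followed the same arrays. All 12 tested were lower, with a median of −0.91, and none passed. Unadjusted p was under 0.05 in 6 (4.53% of all genes on the lower side), and in 3 of them, Elovl7, Ugt8a and Fa2h, the groups did not overlap (1.31% of all genes). Ugt8a and Fa2h are also members of the myelin list and are counted there too. The median was −1.93 between females and −0.07 between males. Elovl7, which lengthens fatty acids, read 6.74, 6.71, 8.27 and 9.20 at 6 weeks and 4.39, 4.91, 5.83, 6.14 and 6.50 at 12 weeks (−2.17 ± 0.52, adjusted p = 0.225). Its difference was −4.08 between females and −0.57 between males. Without replicate 4 of 6 weeks the list median was −0.49. Enzymes of sterol synthesis were lower in 14 of 17 (median −0.33), with Cyp51 at −0.65 ± 0.27 and Ebp at −0.72 ± 0.33 and none passing.

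Earlier stages of the oligodendrocyte lineage differed less in size. Of 10 genes of newly formed oligodendrocytes 9 were lower (median −0.29), with Gpr17, a receptor of cells leaving the precursor state, at 7.12, 6.70, 7.86 and 7.16 against 6.02, 5.73, 6.49, 6.97 and 6.81 (−0.81 ± 0.25, adjusted p = 0.343). Of 12 precursor genes 11 were lower (median −0.14). Olig1, a transcription factor of the whole lineage, read 8.21, 8.36, 9.18 and 9.16 at 6 weeks and 7.69, 7.88, 7.68, 7.94 and 7.99 at 12 weeks (−0.89 ± 0.24, adjusted p = 0.282). Its groups do not overlap, and it rests on 1 probe set. Trf, the iron carrier that oligodendrocytes make, was at −1.62 ± 0.45 (adjusted p = 0.284), from 10.06 to 11.75 at 6 weeks and from 8.14 to 10.38 at 12 weeks.

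**Figure D4:**
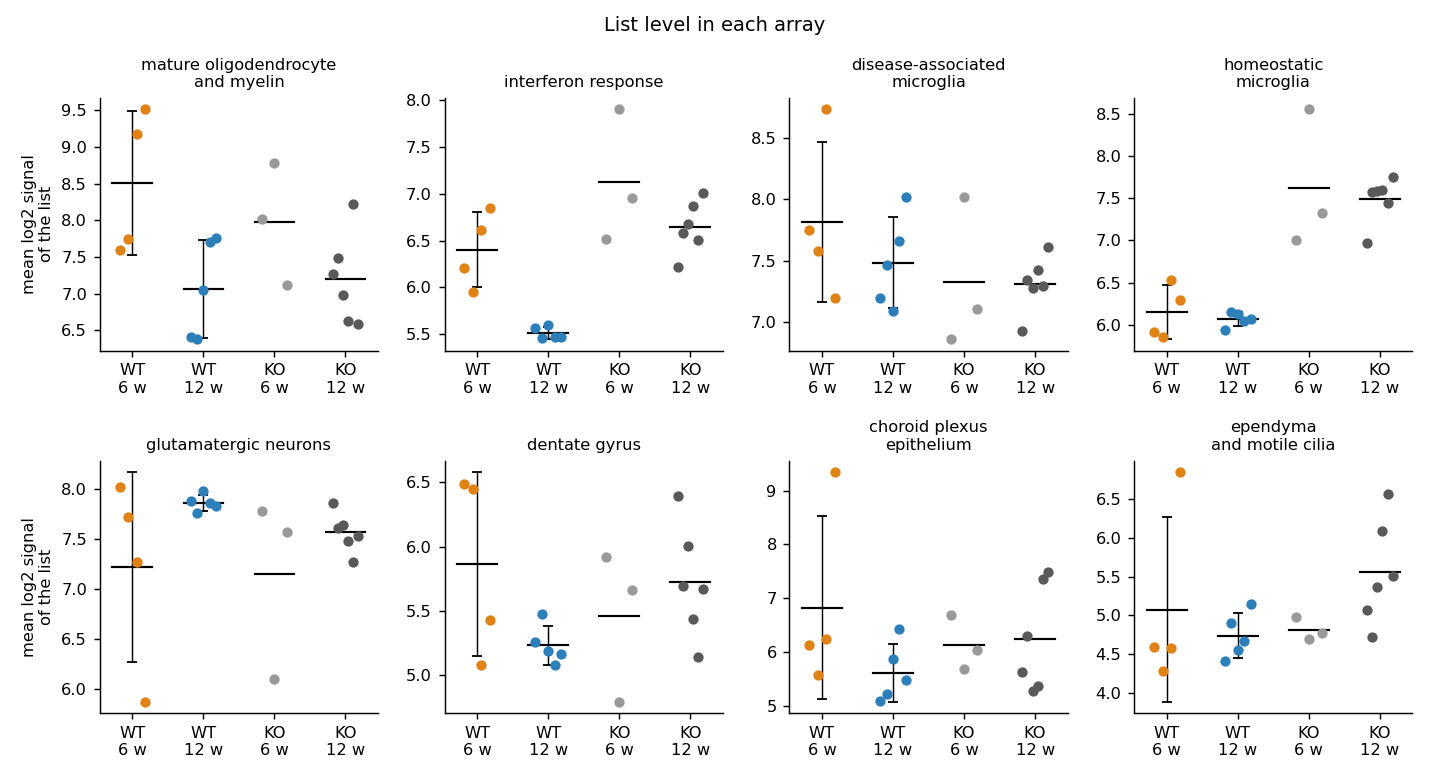
Mean log2 signal of 8 gene lists in each array (points), by genotype and stage, with group means as lines and ± 1 SD as bars for the WT groups (n = 4 and 5). The interferon list separates the 2 WT stages in every array, the myelin list overlaps between them, and replicate 4 of WT at 6 weeks stands apart in choroid plexus and ependyma genes.

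Trem2 overlapped between the stages. It read 7.21, 7.09, 8.42 and 6.44 at 6 weeks and 6.83, 6.96, 7.29, 7.86 and 7.84 at 12 weeks. The difference of 0.07 ± 0.31 did not pass (adjusted p = 0.965). Permuting the 9 arrays in every possible way (exact permutation test, two-sided) gave p = 0.881, where the smallest that 4 against 5 arrays can give is 0.00794. Tyrobp, the adaptor through which the receptor signals, was at 0.20 ± 0.21 (adjusted p = 0.820).

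Microglial genes showed no call in either direction. Genes known to be raised in microglia around damage, part of them through Trem2 signalling, form the disease-associated list. They were lower in 25 of 28, with a small median of −0.32, which was −0.58 between females and −0.06 between males. Of the 28, 3 had an unadjusted p under 0.05, all lower (4.53% of all genes on the lower side), and none passed. Csf1 and the tetraspanin Cd9 (−0.80 ± 0.26, adjusted p = 0.370) had the smallest p. Between females and between males Csf1 differed by −1.19 and −0.49 and Cd9 by −1.57 and −0.12. Spp1, which encodes osteopontin, read 8.64, 8.37, 9.94 and 7.56 at 6 weeks and 7.68, 7.30, 6.56, 7.82 and 8.37 at 12 weeks (−1.08 ± 0.49, adjusted p = 0.568), with groups that overlap. Replicate 3 of 6 weeks was the highest array in this list (8.73, against 7.20 to 7.75 in the other 6-week arrays and 7.09 to 8.01 at 12 weeks), and without it the median was −0.02.

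Homeostatic microglia genes, those of the resting state, were lower in 9 of 17 with a median of −0.06. P2ry13, a purine receptor, was at 0.45 ± 0.27 and P2ry12, its relative on microglial processes, at 0.37 ± 0.37. Rasgrp3, the member of smallest p, was at −0.89 ± 0.36 (adjusted p = 0.507), with −1.90 between females and 0.05 between males. Pan-myeloid genes were lower in 10 of 18 (median −0.12), and lysosome genes in 17 of 20 (median −0.23), with Npc1, a cholesterol exporter of the lysosome, at −0.79 ± 0.30. Between females and between males the pan-myeloid median was −0.40 and 0.19, and the lysosome median −0.76 and 0.16. Npc1 differed by −1.82 between females and 0.11 between males. Without replicate 3 of 6 weeks the pan-myeloid median was 0.22 and the lysosome median −0.05, and without replicate 4 of 6 weeks they were −0.39 and −0.25. Genes of border macrophages and monocytes were higher in 6 of 9 (median 0.24), with F13a1, a clotting factor subunit made by macrophages, at 0.84 ± 0.33. None passed in any of these lists. In the list of cholesterol efflux and lipid storage Fabp3 was higher and Soat1, which esterifies cholesterol for storage, was at −0.52 ± 0.20, in a list with 11 of 15 lower (median −0.08).

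Astrocyte genes had a median of −0.03 over 13 members (0.00 after quantile normalization), and 2 of them, both lower at 12 weeks, had groups that do not overlap (1.31% of all genes). Slc4a4 read 7.75, 7.78, 7.55 and 7.83 at 6 weeks and 6.50, 6.92, 7.22, 6.79 and 7.04 at 12 weeks. All 25 of its probe sets were lower, but only 2 of them had groups that do not overlap. The brightest differed by −0.23 (adjusted p = 0.733 when it stood for the gene). Aqp4, the water channel of astrocyte endfeet, read 7.07, 7.51, 8.23 and 7.41 against 6.74, 4.60, 5.95, 6.44 and 7.02 (−1.40 ± 0.43, adjusted p = 0.337). Of 21 reactive astrocyte genes 15 were lower (median −0.10, but 0.13 without replicate 3 of 6 weeks). Lcn2, an iron-binding protein released by reactive astrocytes, read 5.50, 6.05, 7.40 and 6.28 at 6 weeks and 5.24, 5.29, 4.17, 4.00 and 4.71 at 12 weeks (−1.63 ± 0.49, adjusted p = 0.328), with no overlap and a like difference in females (−1.58) and males (−1.48). S100a10, an annexin partner, was on the other side at 0.68 ± 0.29 (adjusted p = 0.536).

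Most neuronal genes had higher estimates at 12 weeks, and none passed. All 15 pan-neuronal genes were higher (median 0.37), without any at an unadjusted p under 0.05. The median was 0.06 without replicate 4 of 6 weeks, with 13 of 15 higher, and 0.58 without replicate 1. The list read 9.16, 9.10, 8.12 and 7.90 in replicates 1 to 4 of 6 weeks and 8.74 to 9.08 at 12 weeks, so the 12-week arrays lay within the 6-week range. The median was 0.83 between females and −0.12 between males. Glutamatergic neuron genes were higher in 14 of 15 (median 0.56), with Wfs1, a membrane protein of the endoplasmic reticulum, at 1.04 ± 0.26 (adjusted p = 0.250), and replicate 4 of 6 weeks was low in that list (5.87, against 7.27 to 8.01 in the other 3). Without it the median of the glutamatergic list was 0.15 and 11 of 15 were higher, and without replicate 1 of 6 weeks the median was 0.85. Between females the glutamatergic median was 1.10 and between males 0.06. GABAergic genes were higher in 8 of 12 (median 0.21), among them Vip and Pvalb, the parvalbumin of fast-spiking interneurons (0.87 ± 0.36, adjusted p = 0.513). Pvalb differed by 1.95 between females and −0.04 between males. With scores of the pan-neuronal, choroid plexus and ependyma lists as covariates, the median was −0.93 for the myelin list, −0.37 for myelin lipids and −0.56 for the interferon list.

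Choroid plexus genes were lower in 11 of 11, with a median of −1.34 that was −0.34 without replicate 4 of 6 weeks. It was −2.62 between females, who include that array, and 0.07 between males. Ttr, the transport protein transthyretin and the most abundant choroid plexus transcript, read 11.97, 10.81, 12.18 and 12.98 at 6 weeks and 8.12, 9.17, 11.59, 12.55 and 9.72 at 12 weeks. Folr1, a folate receptor of that epithelium, read 4.94, 5.13, 5.54 and 9.04 against 4.50 to 5.27. No gene of this list passed. The median over 14 ependyma and motile cilia genes was −0.30, and it was 0.21 without the same replicate 4.

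Lists for other functions had no member that passed. Respiratory chain genes (20 tested, median 0.06), cell cycle genes (21, 0.08), the integrated stress response (20, 0.08), copper and metallothionein genes (13, −0.11), brain endothelium (15, −0.07) and T cell genes (11, 0.10) had at most 4 members each at an unadjusted p under 0.05 (8.48% of all genes in either direction). Among them Mt3, a metallothionein of the brain, was at 0.79 ± 0.28 and Rrm2, a subunit of ribonucleotide reductase, at 0.75 ± 0.25. In the list of iron storage and transport 10 of 13 were lower (median −0.12). Its members at an unadjusted p under 0.05 were Trf, which was lower, and Hmox1, the haem oxygenase, at 0.80 ± 0.32 (adjusted p = 0.512). Of the fibroblast, meninges and matrix genes 9 of 18 were higher, with Lum (1.58 ± 0.60) and Dcn (1.48 ± 0.61), both proteoglycans of connective tissue, against Postn (−1.80 ± 0.41, adjusted p = 0.197), the matrix protein periostin. Of 12 neutrophil genes 5 were tested, 4 of which were higher and 1 lower (median 0.46, or 0.27 without replicate 1 of 12 weeks). S100a8, the partner of S100a9, read 4.03, 3.55, 3.24 and 3.54 against 5.68, 3.68, 5.39, 4.76 and 4.50 (1.21 ± 0.42, adjusted p = 0.427). Most 6-week values of S100a8 lay near the lowest mean kept, 3.41, so the size of its difference is uncertain. Mmp9, a protease of neutrophil granules, was the lower one, at −0.70 ± 0.20 (adjusted p = 0.286). Immediate early genes, which respond to stimulation within minutes, were higher in 9 of 16 (median 0.01, and −0.03 after quantile normalization). Pericyte and smooth muscle genes were higher in 8 of 12 (median 0.25), striatal and septal genes in 3 of 10 (median −0.10), axonal injury genes in 7 of 13 (median 0.04) and both tested blood genes (median 0.24).

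The same stages were compared in KO, and the difference between the genotypes was tested. In KO 1 gene (0.00613%) differed between 12 and 6 weeks, Zfp36, a protein that destabilises inflammatory messages, which fell by 1.51 ± 0.19 (adjusted p = 0.00174), and 1225 genes (7.5%) had an unadjusted p under 0.05. Zfp36 was at −0.41 ± 0.18 in WT (adjusted p = 0.550). The test of the difference between genotypes (interaction of stage and genotype) passed in 0 of 16324 genes, with 849 (5.2%) at an unadjusted p under 0.05 and a smallest adjusted p of 0.414. No stage difference is therefore shown to be particular to WT.

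Prox1 was at −0.19 in KO, with arrays from 6.38 to 7.47 at 6 weeks and from 6.16 to 7.58 at 12 weeks, and its difference from WT was −1.88 ± 0.42 (adjusted p = 0.594). Tbc1d8b was at 0.30 in KO, and its difference from WT, −1.94 ± 0.37, was among the 3 of smallest p (adjusted p = 0.414). The other 2 were Rerg, a small GTPase of the Ras family (−1.10 in WT, 0.87 in KO), and Rwdd3, which enhances SUMO attachment (−0.92 and 1.38), each with an adjusted p of 0.414. Rtp4 was at −0.55 in KO, where its arrays lay between 6.87 and 8.31 in both stages, above all 12-week and most 6-week WT arrays. The medians in KO were −0.48 for the interferon list, with 16 of 16 lower, and −0.82 for the myelin list, with 19 of 19 lower. They were −0.85 for immediate early genes, where 10 of 16 were lower at an unadjusted p under 0.05 (7.5% of all genes in either direction). In WT 2 of 16 were (4.53% of all genes on the lower side). The interaction had an unadjusted p under 0.05 in 7 of the 16 (5.2% of all genes), with a smallest adjusted p of 0.647. The difference between genotypes was not tested for lists.

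**Figure D5:**
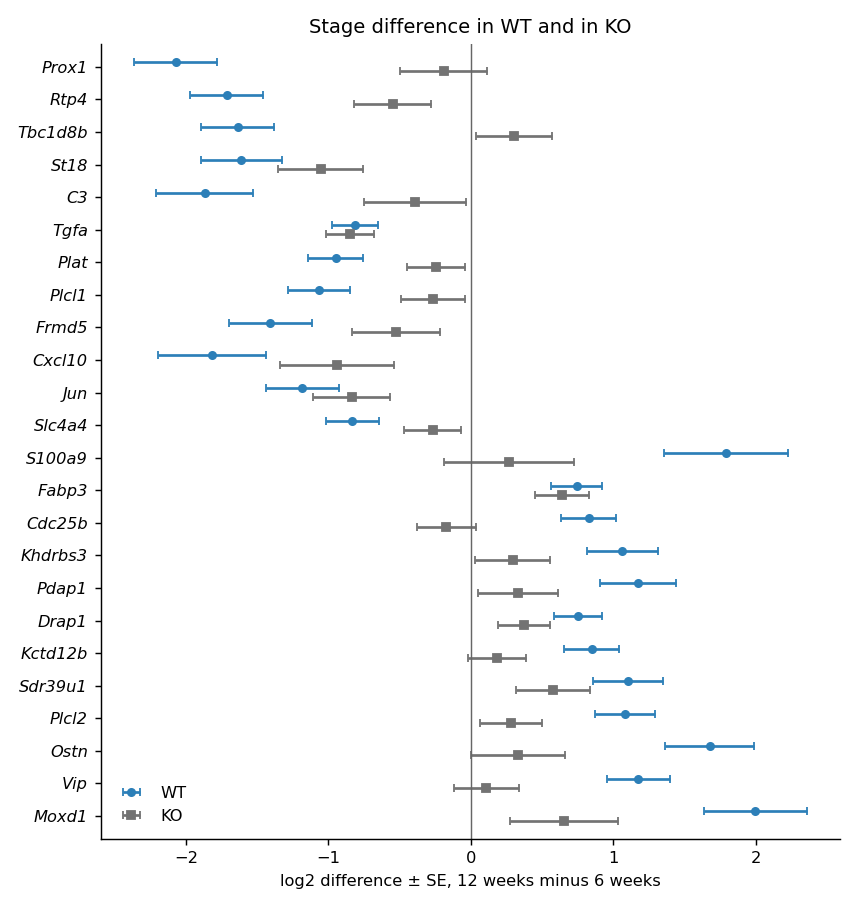
Log2 difference between 12 and 6 weeks (x axis, ± SE of the limma fit) in WT (blue circles) and in KO (grey squares) for the 24 genes of smallest p in WT, 12 lower and 12 higher. The WT values were chosen for their size or p and the KO values were not; the KO value has the opposite sign in Tbc1d8b and Cdc25b, and the interaction passed in no gene.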

How the data were processed

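RNA was isolated with a column kit and amplified with a kit for picogram amounts, per the labels' protocols, with 1 array of 1 colour per sample. The values are the authors' deposited log2 signals of 241576 probe sets (0.73 to 13.67). Background correction, normalization and summarisation are not given in the sources used here. No normalization was added, as the medians of the arrays lay between 5.26 and 5.41. The number of arrays, not a read depth, limits the precision.

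A gene is the median of the probe sets with 1 symbol (212097; 4475 had several and 25004 none), 8 per gene at the median. Of the old symbols 2688 were updated through a RefSeq table of GRCm38.p6, and 20299 of 20406 are current there. The 20% of genes of lowest mean (under 3.41) were left out. limma 3.58.1 (R 4.3.3) fitted 4 group means to all 18 arrays (14 residual and 5.61 prior degrees of freedom), two-sided. The fit was tested on simulated data. Named genes are all that passed, then those of smallest p up to 12 in each direction (1 clone or predicted name passed over in each), Trem2 and Tyrobp, up to 4 per list by p, and 3 for the interaction. Further list members, and Zfp36, were chosen after their values were seen. Members and the 38 textbook lists were chosen with earlier results of these data known. Xist and Y-linked genes gave the sex. Alternatives covered the filter, normalization, the value of a gene, the spread, weights, covariates, blocks, samples, the threshold and single arrays. Plots were drawn with Python 3.11.15 and matplotlib 3.10.9.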

Additional observations from a re-analysis of the deposited data

Results flagged for a closer look

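In 20 of 394 groups of WT arrays tested (5.08%) the highest or lowest array lay far from the others by Dixon's criterion, and chance gives about 1 in 20. Replicate 4 of 6 weeks was high in Folr1 (9.04, against 4.94 to 5.54 in the other 3), a choroid plexus gene, and in the cilia genes Dnah11 (6.40, against 3.51 to 3.82), Tmem212 (8.84, against 4.83 to 5.48) and Hydin (6.57, against 3.41 to 3.55). Its mean level over the ependyma and motile cilia list was 6.84, against 4.28 to 4.60, and over the blood list it was 4.01, against 4.27 to 4.31. Replicate 3 of 6 weeks was high in B2m (12.29, against 11.59 to 11.62), the light chain of MHC class I, in Soat1 (8.50, against 7.54 to 7.70) and in the mean level of the reactive astrocyte list (7.23, against 6.33 to 6.38). Replicate 2 of 6 weeks was low in Drap1 (7.59, against up to 8.07) and high in Drd1, a dopamine receptor (6.61, against 5.87 to 5.93). Replicate 1 of 6 weeks was high in Rwdd3 (5.94, against 4.28 to 4.39) and low in Cdh5, a cadherin of endothelium (3.45, against 4.57 to 4.72).

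At 12 weeks, replicate 5 was high in Coro1a (7.53, against 6.95 to 7.09), an actin-binding protein of leukocytes, and low in Penk, the enkephalin precursor (5.67, against 6.38 to 6.66). Replicate 3 was high in Slco1c1 (6.77, against 6.10 to 6.21), a thyroid hormone carrier, and in Myh11 (5.12, against 4.35 to 4.55), a smooth muscle myosin, and low in Nupr1 (9.28, against 9.57 to 9.67). Replicate 1 was high in Cd2 (4.08, against 3.51 to 3.65), and replicate 4 in the chemokine receptor Ccr7 (6.79, against 5.40 to 5.70). None of these genes passed between stages.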

How the results depend on the processing

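The number of genes that differed between stages was 3, and 16 alternatives, beside leaving out single arrays, gave 0 to 10. It was 5 with the mean of the probe sets, 1 with the brightest probe set (St18), 1 in a fit of the 9 WT arrays alone (Prox1), 7 with sex as a covariate, 10 with neuron, choroid plexus and ependyma scores as covariates (3 of them higher), and 9 at an adjusted p of 0.10. Replicate numbers did not pair the samples (same-number correlations −0.03 to 0.09); with a replicate block 0 genes passed over 18 arrays (adjusted p 0.0741 for Prox1 and 0.0555 for Rtp4 and Tbc1d8b) and 3 over the 9 WT arrays (Elovl7, Prox1 and Aspa). Leaving out single arrays gave 1 to 6, with 1 without replicate 2 of 6 weeks (Rtp4) or of 12 weeks (Prox1) and 6 without replicate 4 of 12 weeks. Prox1 passed in 20 of 23 alternatives, Rtp4 in 14 of 23 and Tbc1d8b in 13 of 22. The 3 kept their direction in each alternative run, while Trem2, which never passed, turned sign in 7. The interaction had 0 genes in each alternative but the tissue scores, which gave 2. The cause of these shifts was not tested. The interferon median was −0.56 with tissue scores, and the myelin median −0.93.

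In a test of stage within each sex (limma), added after seeing the data, 314 of 16324 genes passed between females (2 against 2 arrays). The females include the 6-week arrays high in myelin, and sex and tissue mixture cannot be told apart at 6 weeks. Between males (3 against 2) 0 passed (814 at an unadjusted p under 0.05, smallest adjusted p 0.285). The difference between the sexes passed in 0 genes (smallest adjusted p 0.0629), with 2106 at an unadjusted p under 0.05 where chance gives 816.2.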
